A study of Mus musculus with 2 samples.

Results

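The pentose phosphate pathway and the glutathione system were followed through 10 genes: G6pdx, Pgls and Pgd of the oxidative arm, Rpia, Rpe, Tkt and Taldo1 of the non-oxidative arm, and Gsr, Gclc and Gclm of glutathione reduction and synthesis. The genes were chosen by symbol for their known enzymes, and all 10 had a row among the 25791 gene rows of the table. RNA was sequenced from mouse Extensively Self Renewing Erythroblasts (ESREs), cultured red cell precursors that keep dividing at an immature stage, all on a C57/bl6 background. For the maturation group these cells were matured for 1 day, and those of the expansion group were still proliferating. The series text mentions biological duplicates, yet each group has a single value per gene in the table, so the differences below come without replicates, SD or p-value. Its title names β-Yac transgenic mice as the source of the cells, while the sample labels give only the background strain.

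Values are FPKM, the number of sequenced fragments scaled by transcript length and by the fragments mapped in the library, so levels can be compared between genes. A row counted as expressed at 1 FPKM or more in at least 1 group, which held for 9263 rows and for 10 of the 10 genes. Log2 ratios set maturation over expansion after adding 1 FPKM to each value, which understates the difference of weakly expressed genes, and folds divide the FPKM values without it. The summed FPKM of all rows was 416690 in maturation and 411084 in expansion, while the depth of sequencing is unknown. The median log2 ratio of the expressed rows was -0.25, so a gene with a slightly negative ratio stood near the middle of all genes.

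The pentose phosphate pathway branches from glycolysis at glucose 6-phosphate. Its oxidative arm makes NADPH and ribulose 5-phosphate, and its non-oxidative arm interconverts sugar phosphates and returns carbon to glycolysis or supplies ribose for nucleotides. NADPH is what glutathione reductase uses to keep glutathione reduced, and red cells, which carry oxygen on iron, depend on this supply to withstand oxidation. In humans, deficiency of glucose 6-phosphate dehydrogenase is a common cause of hemolysis under oxidative stress.

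NRF2, a transcription factor activated by oxidative stress, binds the antioxidant response element, and several genes of both pathways, including Gclm and G6pdx, are known as its targets. Promoters for 8 of the 10 genes were found in RefSeq sequences of GRCm38.p6, from 250 bases before to 50 after each annotated start, with none for Gsr and Gclc. A core of this element, TGACNNNGC on either strand, lay in 3 of these 8 genes, namely G6pdx, Gclm and Pgd, and in 12.4% of all 32851 promoters of the same length. Pgd has 2 promoters, 1 of which holds it, after its start, so it lay in 3 of 9 promoters of these genes. Among the 7293 promoters of expressed rows the share was 15.1%. The 250 bases before the start are shown for G6pdx (chrX:74428881-74429130, minus strand) and Gclm (chr3:122245307-122245556, plus strand), since these genes stood on opposite sides of a ratio of 0, with the matching letters in capitals. They are read 5′ to 3′ along the gene and lie on GRCm38.p6, not on the mm9 build of the expression table.
G6pdx: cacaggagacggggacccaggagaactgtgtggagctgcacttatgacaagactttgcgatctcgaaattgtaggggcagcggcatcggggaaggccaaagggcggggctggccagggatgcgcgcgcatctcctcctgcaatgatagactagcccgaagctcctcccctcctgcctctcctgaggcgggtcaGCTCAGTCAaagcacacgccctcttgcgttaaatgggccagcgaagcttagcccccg
Gclm: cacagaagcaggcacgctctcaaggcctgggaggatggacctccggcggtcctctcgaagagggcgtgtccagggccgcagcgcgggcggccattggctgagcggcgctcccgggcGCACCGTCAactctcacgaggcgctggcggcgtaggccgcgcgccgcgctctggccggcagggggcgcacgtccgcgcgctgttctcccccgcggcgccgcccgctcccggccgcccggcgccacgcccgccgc
Both matches are on the reverse strand, and they begin 57 bases before the G6pdx start and 134 bases before the Gclm start. In Pgd, which has a pair of annotated starts, the match TGACATTGC begins at base 4 after the downstream start. It therefore lies inside the gene as read from the upstream start, whose own window holds 0 matches. Before a start, the element was found only in G6pdx and Gclm. A KLF1-type motif, CCNCNCCC, was present in 7 of the 8 genes and 8 of their 9 promoters, against 49.5% of all promoters and 67.1% of those of expressed rows. It overlapped no TGACNNNGC match in these promoters. Pgls was the gene without it. The GATA motif AGATAA and the E-box CACGTG were found in 0 of the 8 genes, against 11.2% and 7.15% of all promoters. Among promoters of expressed rows these shares were 6.31% and 11.3%. These matches describe letters in a window of 300 bases and do not show binding.

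None of the 10 genes differed by 2-fold or more between the groups. All 10 kept a clear level in both groups, between 4.28 and 105 FPKM in maturation and between 4.43 and 112 FPKM in expansion. Folds ran from 0.617 for Pgd to 1.29 for Gclm. A log2 ratio of at least 1 was found for 3.13% of the expressed rows and of -1 or less for 6.70%, so a count of 0 among 10 genes is near this background. Of the 10 genes, 8 had a log2 ratio below 0 and 2 above 0, against 74.1% and 25.9% of the expressed rows. The median log2 ratio of the 10 was -0.17. Relative to the median of all expressed rows, 4 genes lay below it and 6 at or above it, and with small RNA rows left out of the scaling 5 had a log2 ratio below 0.

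Summed levels differed by role. Summed over its genes, the oxidative arm was at 35.8 FPKM in maturation and 50.8 FPKM in expansion, a fold of 0.706. The non-oxidative arm was at 170.5 FPKM in maturation and 188.7 FPKM in expansion, a fold of 0.904. The glutathione genes were at 55.3 FPKM in maturation and 46.1 FPKM in expansion, a fold of 1.20. Most of the non-oxidative sum was Taldo1, at 105 FPKM in maturation and 112 FPKM in expansion. Most of the glutathione sum was Gclm, at 41.0 FPKM in maturation and 31.9 FPKM in expansion, while Gsr was lower in maturation, with a fold of 0.828. With 3 or 4 genes per group and 1 value per gene, these sums are a description and were not tested against one another.

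**Figure D1:**
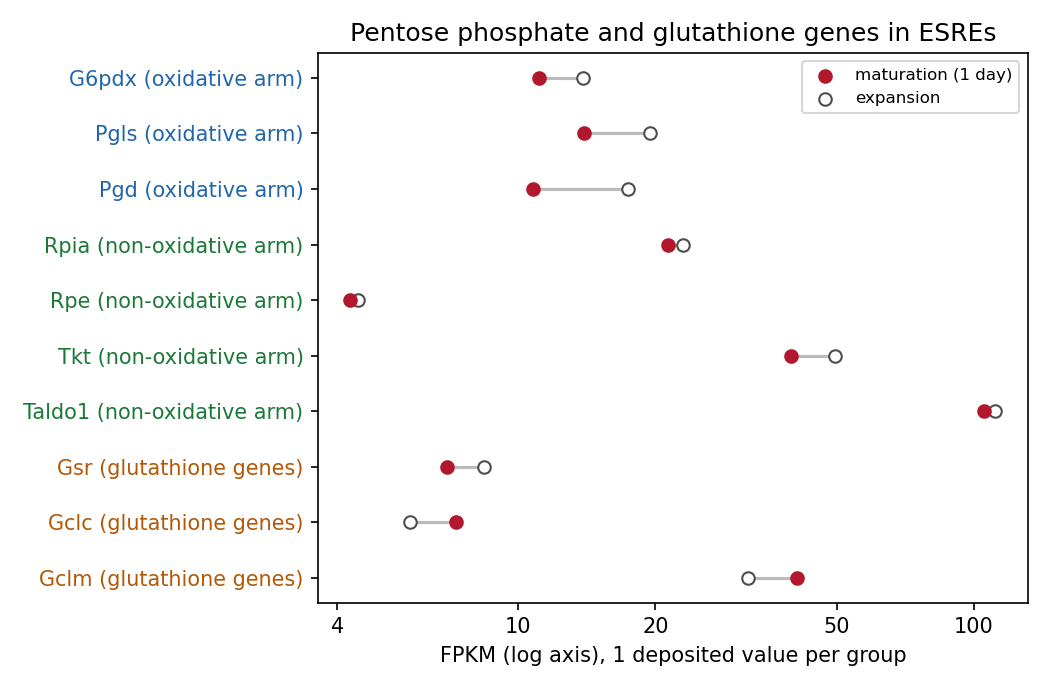
FPKM of the 10 genes on a log axis, with filled points for maturation and open points for expansion, and 1 deposited value per point. As deposited, filled points lie left of open points for 8 genes, with the widest gap at Pgd, and right of them for Gclc and Gclm.

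In the oxidative arm all 3 genes were lower in maturation, also relative to the median of all expressed rows. G6pdx (chrX:71638630-71699117, mm9), which encodes glucose 6-phosphate dehydrogenase, the enzyme that commits glucose 6-phosphate to the pathway and makes NADPH, was at 11.1 FPKM in maturation and 13.9 FPKM in expansion. Its fold was 0.800 and its log2 ratio -0.30, close to the median of all rows. Pgls (chr8:74116083-74120166), the lactonase that opens the product of that step, was at 14.0 FPKM in maturation and 19.4 FPKM in expansion, with a fold of 0.718 and a log2 ratio of -0.45. Pgd (chr4:148524094-148540816), the 6-phosphogluconate dehydrogenase that makes further NADPH and releases carbon dioxide, was at 10.8 FPKM in maturation and 17.5 FPKM in expansion. Pgd had the lowest log2 ratio of the 10, -0.65, and 17.0% of all expressed rows had a lower one. The dehydrogenases changed places in order of level: G6pdx stood at 1.03 times Pgd in maturation and 0.795 times Pgd in expansion.

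The level of G6pdx is uncertain, because a copy of the gene has its own row. G6pd2, a retrotransposed copy of G6pdx on chromosome 5, was at 14.7 FPKM in maturation and 18.6 FPKM in expansion, above G6pdx in both groups. Of the 36-base stretches of the longest protein-coding G6pdx transcript in GENCODE M21, 12.4% occur exactly in G6pd2 transcripts and 3.71% in transcripts of Ikbkg, whose row shares the G6pdx locus in the table. For stretches of 75 bases the shares were 1.94% and 2.25%. The read length and the mismatches allowed are unknown here. Ikbkg was at 1.31 FPKM in maturation and 1.75 FPKM in expansion. G6pdx and G6pd2 together were at 25.8 FPKM in maturation and 32.4 FPKM in expansion, and the fold of this sum, 0.796, lay close to that of G6pdx alone.

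In the non-oxidative arm the levels in the 2 groups lay closer together. Rpia (chr6:70715714-70742169), the isomerase that makes ribose 5-phosphate, the sugar of nucleotides, was at 21.4 FPKM in maturation and 22.96 FPKM in expansion, a fold of 0.930. Rpe (chr1:66747467-66864169), the epimerase that makes xylulose 5-phosphate from the same substrate, was the weakest of the 10 at 4.28 FPKM in maturation and 4.43 FPKM in expansion, a fold of 0.964. Taldo1 (chr7:148578059-148588875), transaldolase, was the strongest at 105 FPKM in maturation and 112 FPKM in expansion, a fold of 0.943. These 3 genes had log2 ratios between -0.10 and -0.04, and the sign turned positive, at 0.15 for Rpia, 0.20 for Rpe and 0.16 for Taldo1, when the median of expressed rows was subtracted, and it also turned positive when small RNA rows were left out of the scaling. Tkt (chr14:31362335-31387908), transketolase, a thiamine-dependent enzyme that works beside transaldolase, was at 39.6 FPKM in maturation and 49.7 FPKM in expansion. Its fold of 0.797 was close to that of G6pdx and its log2 ratio of -0.32 stayed below the median. Per length, Taldo1 stood at 2.66 times Tkt in maturation and 2.25 times Tkt in expansion.

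A part of these transcripts is shared with other genes. Of the 36-base stretches of the Rpe transcript 19.5%, and of its 75-base stretches 18.3%, the highest share of the 10 genes at either length, occur in transcripts of Kansl1l, the present RefSeq name of 1110028C15Rik, whose row has the same locus as Rpe and was at 0.138 FPKM in maturation and 0.273 FPKM in expansion. Of those of the Taldo1 transcript, 19.1% occur in Gm17823, a processed pseudogene without a row in the table, and 1.24% of its 75-base stretches do. Pgls, Pgd, Rpia, Tkt, Gsr and Gclc had 0 shared stretches of either length.

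Of the 3 glutathione genes, the 1 for reduction had a log2 ratio below 0 and the 2 for synthesis had ratios above 0. With 1 value per group, this difference was not tested. Gsr (chr8:34763710-34808634), glutathione reductase, which spends NADPH to turn oxidized glutathione back to its reduced form, was at 6.96 FPKM in maturation and 8.41 FPKM in expansion. Its log2 ratio of -0.24 was at the median of all expressed rows, with 50.7% of rows below it, and its centred value was 0.006. Gclc (chr9:77602617-77641458), the catalytic subunit of glutamate-cysteine ligase, which carries out the rate-limiting step of glutathione synthesis, was at 7.30 FPKM in maturation and 5.77 FPKM in expansion, a fold of 1.27. Gclm (chr3:121948510-121996467), the modifier subunit that makes the ligase more efficient, was at 41.0 FPKM in maturation and 31.9 FPKM in expansion, a fold of 1.29. Gclc and Gclm were the genes with a log2 ratio above 0, at 0.29 and 0.35, and 88.0% and 89.6% of expressed rows had a lower ratio. Gclm stood at 5.61 times Gclc in maturation and 5.52 times Gclc in expansion, so the levels of the subunits kept nearly the same proportion.

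The Gclm row is listed at a locus shared with Dnttip2 and LOC100503394. LOC100503394 was at 186 FPKM in maturation and 256 FPKM in expansion, and Dnttip2 at 7.52 FPKM in maturation and 9.22 FPKM in expansion. Both therefore had ratios below 0, where Gclm was above 0. Of the 36-base stretches of the Gclm transcript, 1.999% occur in other genes' transcripts, and 0% of its 75-base stretches do. Only GENCODE M21 transcripts were searched, and whether LOC100503394 is among them is unknown, so these shares do not measure overlap with that row.

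The order of levels was almost the same in both groups. From the highest it ran Taldo1, Gclm, Tkt, Rpia, Pgls, G6pdx, Pgd, Gclc, Gsr and Rpe in maturation, and Taldo1, Tkt, Gclm, Rpia, Pgls, Pgd, G6pdx, Gsr, Gclc and Rpe in expansion. The neighbours that changed places were Gclm and Tkt, G6pdx and Pgd, and Gclc and Gsr. With 1 value per group, whether neighbours differ beyond their spread is unknown. Taldo1 exceeded 94.4% of expressed rows in maturation and 94.9% in expansion. Rpe exceeded 56.9% in maturation and 50.8% in expansion.

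**Figure D2:**
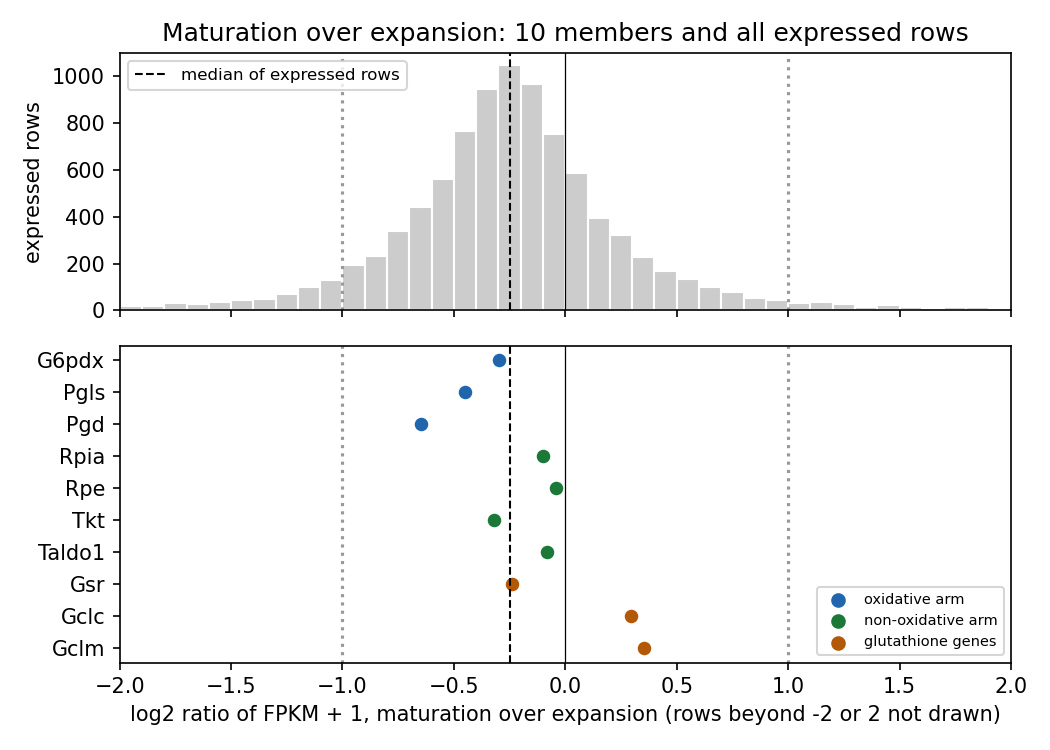
Upper panel, number of expressed rows by log2 ratio of FPKM + 1, maturation over expansion, with the median of -0.25 as a dashed line and 2-fold as dotted lines. Lower panel, the ratio of each of the 10 genes, coloured by role: the oxidative arm lies left of the median, Gclc and Gclm lie right of 0, and no gene reaches a dotted line.

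Related genes were read from 7 lists with 126 entries, of which 122 matched by symbol and 3 by a RefSeq synonym, and 84 rows were expressed. Of the 84, 5 passed 2-fold upward in maturation and 13 downward, with a log2 ratio of 1 as the limit. These are 5.95% and 15.5% of the listed rows, beside 3.13% and 6.70% of all expressed rows, which is the background for each list below, and the differences were not tested. Their median log2 ratio was -0.37. With ratios centred on that of all expressed rows, the counts were 5 and 7. With a pseudocount of 5 FPKM the counts were 3 and 4.

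Around the branch point, 0 of 9 expressed glycolytic genes passed 2-fold upward and 2 passed it downward, 1 of them after centring, and 8 had a log2 ratio below 0 and 1 above. Their median log2 ratio was -0.52, beside -0.45 for the oxidative arm and -0.17 for all 10 genes, and these differences were not tested. Gpi1, the isomerase that sends glucose 6-phosphate down glycolysis, was at 13.7 FPKM in maturation and 37.1 FPKM in expansion, a log2 ratio of -1.37. G6pdx, which competes for the same substrate, stood at 0.809 times Gpi1 in maturation and 0.374 times Gpi1 in expansion. Aldoa, an aldolase, was at 43.2 FPKM in maturation and 99.6 FPKM in expansion, with a log2 ratio of -1.19 that becomes -0.94 after centring. Hk1, the hexokinase that makes glucose 6-phosphate, was at 21.3 FPKM in maturation and 28.2 FPKM in expansion, and Hk2 at 1.58 FPKM in maturation and 3.33 FPKM in expansion. Against Hk1 the proportion was nearly the same in both groups, with G6pdx at 0.521 times Hk1 in maturation and 0.491 times Hk1 in expansion. The gene above 0 was Pfkm, a phosphofructokinase, at 10.4 FPKM in maturation and 8.56 FPKM in expansion. Gapdh, which oxidizes glyceraldehyde 3-phosphate, a product of both routes, was at 41.1 FPKM in maturation and 59.5 FPKM in expansion.

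Among 12 expressed neighbours of the pathway, 0 passed 2-fold upward and 3 downward, and the median log2 ratio was -0.47. With a pseudocount of 5 the downward count was 0. Prpsap1, a protein associated with phosphoribosyl pyrophosphate synthetase, was at 3.06 FPKM in maturation and 9.33 FPKM in expansion. The synthetase gene Prps1, whose enzyme uses the ribose 5-phosphate that Rpia makes, was at 17.2 FPKM in maturation and 18.1 FPKM in expansion, a fold of 0.950 close to that of Rpia. The phosphoglucomutase rows Pgm1 and Pgm2 were the other genes beyond 2-fold. Pgm2, on chromosome 4 and called Pgm1 in RefSeq, was at 0.330 FPKM in maturation and 3.57 FPKM in expansion. Pgm1, on chromosome 5 and called Pgm2 in RefSeq, was at 2.25 FPKM in maturation and 6.80 FPKM in expansion. H6pd, the dehydrogenase of the endoplasmic reticulum, was at 1.40 FPKM in maturation and 2.72 FPKM in expansion.

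Other sources of NADPH were mixed. Of 8 expressed genes, 0 passed 2-fold upward and 2 downward, or 0 downward with a pseudocount of 5, and the median log2 ratio was -0.66. Idh1 and Idh2, the NADP-dependent isocitrate dehydrogenases of the cytosol and mitochondria, were the lower ones. Idh1 was at 1.76 FPKM in maturation and 5.09 FPKM in expansion, and Idh2 at 4.89 FPKM in maturation and 12.2 FPKM in expansion. Both lay within 2-fold after centring, at -0.89 and -0.92. Nadk, the kinase that makes NADP from NAD, was at 5.63 FPKM in maturation and 10.3 FPKM in expansion, and Mthfd1, a folate enzyme, at 16.1 FPKM in maturation and 25.5 FPKM in expansion. Mthfd2, a mitochondrial folate dehydrogenase, was the highest of the list in maturation at 26.0 FPKM, against 16.6 FPKM in expansion.

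The rest of glutathione synthesis and supply was mixed. Of 11 expressed genes of synthesis, breakdown and cystine supply, 0 passed 2-fold upward and 3 downward, but 0 downward once ratios were centred. Their median log2 ratio was -0.72. Gss, glutathione synthetase, which finishes what glutamate-cysteine ligase starts, was at 5.92 FPKM in maturation and 4.25 FPKM in expansion, a log2 ratio of 0.40 beside 0.29 for Gclc and 0.35 for Gclm. Slc7a11, the transport subunit of the cystine importer, was at 20.2 FPKM in maturation and 16.5 FPKM in expansion, while its partner Slc3a2 was at 15.0 FPKM in maturation and 25.4 FPKM in expansion. The 3 lower rows were Ggct and Chac1, enzymes of glutathione breakdown, and Cth, which makes cysteine. Ggct was at 0.514 FPKM in maturation and 2.35 FPKM in expansion, Chac1 at 0.798 FPKM in maturation and 2.69 FPKM in expansion, and Cth at 2.25 FPKM in maturation and 5.83 FPKM in expansion. Chac2, a further enzyme of glutathione breakdown, was higher, at 2.69 FPKM in maturation and 2.08 FPKM in expansion. With pseudocounts of 0.1 and 5 the downward counts of this list were 5 and 0.

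The enzymes that use glutathione held the widest range. Of 19 expressed peroxidases, transferases, glutaredoxins and related rows, 3 passed 2-fold upward and 1 downward. Their median log2 ratio was -0.17. With a pseudocount of 5, or with values rescaled to TPM, the upward count was 2. Mgst3, a microsomal glutathione transferase, was at 56.3 FPKM in maturation and 10.5 FPKM in expansion, a fold of 5.38. Hagh, the glyoxalase that releases glutathione, was at 13.1 FPKM in maturation and 3.26 FPKM in expansion, a fold of 4.03. Glrx5, the mitochondrial glutaredoxin of iron-sulfur cluster assembly, was at 76.4 FPKM in maturation and 37.5 FPKM in expansion. Gsto1, an omega-class transferase, was lower, at 4.97 FPKM in maturation and 20.5 FPKM in expansion. Gpx1, the main glutathione peroxidase of red cells, had the highest level of the list, 295 FPKM in maturation and 215 FPKM in expansion, and Gpx4, which reduces lipid peroxides, was at 70.1 FPKM in maturation and 48.8 FPKM in expansion.

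Among 16 expressed thioredoxin genes and other reductases, 2 passed 2-fold upward and 2 downward, against 1 and 1 with a pseudocount of 5. Their median log2 ratio was -0.003. Blvrb, an NADPH-dependent flavin and biliverdin reductase abundant in red cells, was at 118 FPKM in maturation and 49.2 FPKM in expansion. Cyb5r3, which reduces methemoglobin through cytochrome b5 with NADH, was at 16.1 FPKM in maturation and 7.42 FPKM in expansion. Por, which passes electrons from NADPH to cytochrome P450, was at 1.29 FPKM in maturation and 8.31 FPKM in expansion. Txnip, which binds thioredoxin, was at 2.62 FPKM in maturation and 9.73 FPKM in expansion. Txnrd1, cytosolic thioredoxin reductase, the counterpart of Gsr, was at 20.7 FPKM in maturation and 19.1 FPKM in expansion, and Txn1, thioredoxin, at 44.2 FPKM in maturation and 48.95 FPKM in expansion.

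**Figure D3:**
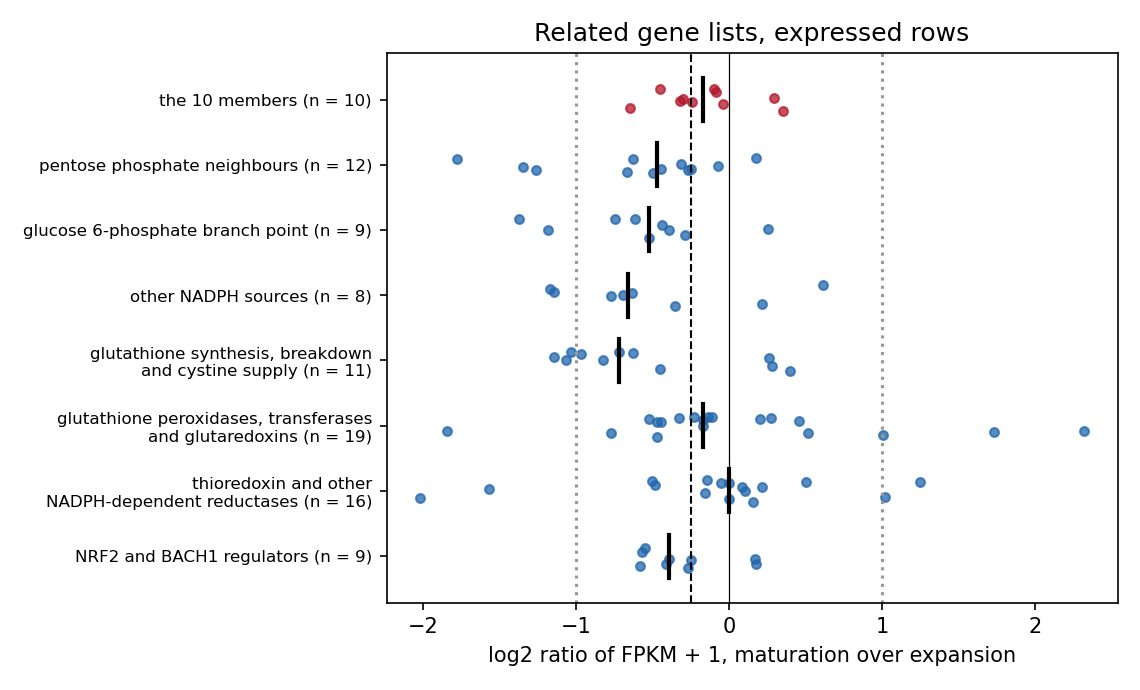
Log2 ratio of FPKM + 1, maturation over expansion, for the 10 genes and the expressed rows of the 7 lists, 1 point per gene row, with list medians as black bars, the median of all expressed rows as a dashed line and 2-fold as dotted lines. The 10 genes lie between -0.65 and 0.35, while the list of peroxidases, transferases and glutaredoxins spans -1.85 to 2.32.

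Of 9 expressed regulators around NRF2 and BACH1, 0 passed 2-fold in either direction. Maff, a small MAF partner, passed it downward with a pseudocount of 0.1 and was at 0.492 FPKM in maturation and 1.22 FPKM in expansion. The median log2 ratio of the list was -0.40. Nfe2l2, the gene of NRF2, was at 7.08 FPKM in maturation and 10.8 FPKM in expansion. Bach1, a heme-sensing repressor of the same sites, was at 2.21 FPKM in maturation and 1.85 FPKM in expansion. Nfe2, the erythroid relative of NRF2, was at 16.9 FPKM in maturation and 14.8 FPKM in expansion, and the NRF2-bound adaptor Keap1 at 3.68 FPKM in maturation and 4.55 FPKM in expansion. RNA levels do not measure the activity of these factors.

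Cell identity markers were checked beside these values. All 8 erythroid markers were expressed, although Slc4a1 was at 0.0744 FPKM in expansion and reached 1 FPKM only in maturation. Of the 8, 6 were at least 2-fold higher in maturation by log2 ratio, beside 3.13% of all expressed rows. Klf1 was at 42.7 FPKM in maturation and 18.7 FPKM in expansion. The 7 mast cell and basophil markers summed to 2.72 FPKM in maturation and 24.8 FPKM in expansion, and the 7 megakaryocyte and platelet markers to 4.13 FPKM in maturation and 22.8 FPKM in expansion. Of these, 4 of 4 expressed mast cell and 3 of 4 expressed megakaryocyte markers were at least 2-fold lower in maturation by log2 ratio. The share of all expressed rows was 6.70%. Except for Il1rl1, these lower markers reached 1 FPKM only in expansion, so they counted as expressed through that group alone. The megakaryocyte marker Gp9 was higher, at 1.84 FPKM in maturation and 0.756 FPKM in expansion. Mcpt8 was listed at 0 in both groups. Markers of macrophages summed to 0.601 FPKM in maturation and 1.34 FPKM in expansion, and those of granulocytes, lymphocytes and hepatocytes to 0.0562 FPKM or less in either group. The part of these differences in the values of the 10 genes was not tested. In such bulk RNA, fewer cells of a type and less RNA per cell cannot be told apart.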

How the data were processed

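RNA of ESREs in maturation and in expansion was sequenced from NextFlex libraries, per the labels' protocols. The deposited FPKM values, 1 per gene row and group, were made by the authors, and their submitters' processing notes name Cuffdiff 2.0.2 and mouse build mm9. On the aligner, annotation, filters and pooling of the duplicates, nothing is given in the sources used here. Read counts and depth were not recovered from the FPKM values, and with 1 value per group no test was run.

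The 10 genes and the lists were chosen with earlier results of these data known. Ratios were computed in Python 3.11.15 with pandas 2.3.3 and numpy 2.4.6, with a pseudocount of 1 and a minimum of 1 FPKM in at least 1 group. The call counting was checked on simulated data. List genes were matched by symbol, then by RefSeq synonym, and Nadk2 was not analysed here. The rule for named list genes takes the expressed rows beyond 2-fold and, in each list, up to 4 with the largest absolute log2 ratio and the 2 with the highest FPKM, and the text gives a selection of these. H6pd, Hk1, Pfkm, Gss, Chac2, Gpx4, Txnrd1, Bach1, Keap1, the markers and the rows that share a locus with the 10 genes were chosen after their values were seen. Table positions are given counted from 1, since 175 of 175 microRNA rows within 1 base of their RefSeq length equalled it when the listed start was counted from 0. Transcripts of GENCODE M21 were cut into stretches of 36 and 75 bases and compared exactly on both strands. Alternatives covered the pseudocount, filter, centring and scaling.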

Additional observations from a re-analysis of the deposited data

How the results depend on the processing

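Each value rests on 1 deposited number per group, so no replicate could be left out. No paired analysis was possible because each group has 1 column and the result comes from no test. Over all alternatives tried, G6pdx, Pgls, Pgd and Tkt had a log2 ratio below 0 and Gclc and Gclm above 0, and 0 of the 10 genes passed 2-fold in either direction. Rpia, Rpe and Taldo1 turned positive after centring and when small RNA rows were left out of the scaling, and Gsr turned positive after centring only. The median log2 ratio of the 10 genes was -0.19 with a pseudocount of 0.1, -0.12 with 5, -0.24 at a minimum of 5 FPKM (9 genes, without Rpe), 0.077 after centring, -0.20 as TPM and -0.055 without small RNA rows. With G6pdx and G6pd2 summed, an alternative chosen after seeing the data, it was -0.17, and the log2 ratio of the sum was -0.32. Without small RNA rows the median of all expressed rows was -0.15, and as TPM it was -0.30. The number of all expressed rows at least 2-fold lower was 1303 with a pseudocount of 0.1, 148 with 5, 349 at the minimum of 5 FPKM, 363 after centring and 1011 as TPM, against 621. The number at least 2-fold higher was 166 with a pseudocount of 5, against 290, and 420 after centring. Of the listed rows together, 3 were higher and 4 lower with a pseudocount of 5, and 7 were lower after centring. Of 98 list counts under alternatives, 12 moved by over 1.5 times. The cause of these moves was not tested beyond what each setting changes by construction.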
